A study of Homo sapiens with 12 samples.

Results

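HLA class II molecules display peptides taken from the endosomal system to CD4+ T cells. Each is a pair of an alpha and a beta chain that assembles around the invariant chain CD74, loses CD74 in endosomes, and is loaded with peptide under the control of HLA-DM and HLA-DO. Professional antigen-presenting cells make these molecules constantly, whereas epithelial tumour cells make little unless interferon gamma induces CIITA, a coactivator that joins the factors RFX, CREB and NF-Y on the X and Y boxes of class II promoters.

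The 10 class II genes described here are HLA-DRA, HLA-DRB1, HLA-DPA1, HLA-DPB1, HLA-DQB1, HLA-DMA, HLA-DMB, HLA-DOA, CD74 and CIITA. They were measured on Affymetrix arrays in prostate cancer cell lines. The members are the probe sets whose array annotation names 1 of these genes and no other, 24 of the 22215 probe sets on the smaller array type and 28 of the 54613 on the larger one. These are 10 of the 19775 genes that a probe set of the larger array names alone. Another 4 probe sets on the smaller array and 5 on the larger one name a member together with other HLA genes and are given apart.

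The study compared docetaxel-resistant with parental cells in 2 established human prostate carcinoma lines, DU145, which came from a brain metastasis, and 22Rv1, which came from a xenograft. DU145-DR and 22Rv1-DR cells had been selected for resistance and were grown under docetaxel, a taxane that stabilises microtubules, and DU145 and 22Rv1 cells were the docetaxel-sensitive parents, grown in the same serum-supplemented RPMI medium without the drug. Each comparison therefore joins resistance with drug exposure, and the sources used here do not give the drug dose, its duration, or whether a resistant line is 1 clone. Each of the 4 groups had 3 arrays, 12 in all: replicates 1 and 2 on the smaller type (8 arrays) and replicate 3 on the larger type (4 arrays). Nothing in these sources says that replicates were separate cultures, so a p-value here reflects the spread among arrays, which may be technical.

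Values are probe-set intensities on a linear scale. In the 8-array table the 5th percentile of an array lay at 35.8 to 38.6 for DU145-DR and DU145 cells and at 11.5 to 12.3 for 22Rv1-DR and 22Rv1 cells, and the medians at 184 to 205 and 59.3 to 69.1. In the 4-array table all medians lay between 37.5 and 39.7. Levels are therefore compared between lines only as a percentile within their array or after quantile normalization. Percentiles are not comparable between the 2 tables, which rank 22215 and 54613 probe sets. For example, HLA-DRA probe set 208894_at stood at 9.58 and 11.2 on 22Rv1 replicates 1 and 2 and at 42.4 on replicate 3. Percentile ranges and medians over the 3 arrays of a group span both tables. Changes are resistant minus parental differences of log2(intensity + 16), a scale that understates changes of low values, with the standard error (SE) and Benjamini-Hochberg adjusted p of limma over all 22215 probe sets and 2 arrays per group. The replicate 3 arrays give 1 more difference, with no test. A change counts as called at an adjusted p under 0.05. Because arrays of the same line and replicate number deviated together, the adjusted p with the replicate number as a block is added where it changes the call. Every SE is that of the fit without the block. In bulk RNA, fewer cells of a kind and less RNA per cell cannot be told apart.

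The markers of cells that carry class II constitutively were read beside the class II genes. Over 7 measured B cell markers the summed intensity ranged from 653 to 717 on DU145-DR arrays, 586 to 785 on DU145 arrays, 576 to 626 on 22Rv1-DR arrays and 485 to 494 on 22Rv1 arrays. Over 8 dendritic and myeloid markers it ranged from 581 to 755, 555 to 783, 178 to 180 and 170 to 178 in the same order of groups. These sums can be compared only within a line, because the 22Rv1-DR and 22Rv1 arrays have a lower floor. Of these 15 genes and of 8 T cell and leukocyte markers, 0 were called in either line, and none is listed at 0. PAX5, a B cell transcription factor, read 410 and 458 on 22Rv1-DR arrays, against 300.2 and 313 on 22Rv1 arrays, with a change of 0.48 ± 0.14 (adjusted p = 0.161, and 0.0278 with the block) and 2.66 on replicate 3. CD68 and FCGR3A were not analysed here.

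Of 7 epithelial markers measured, 3 fell in DU145-DR cells, where 3.06% of all probe sets were called lower. These were CDH1 (E-cadherin) with a change of -5.74 ± 0.21, EPCAM with -2.36 ± 0.19 and KRT18 with -1.01 ± 0.19 (adjusted p at most 0.0311). KRT18 was not called without DU145-DR replicate 1 (0.0918), DU145 replicate 1 or 2 (0.0737 and 0.136), or 22Rv1-DR replicate 1 or 2 (0.0726). The KRT18 call was also lost with arrays shifted to 1 median (adjusted p = 0.0541) and with all 12 arrays (0.0744). With only the 4 DU145-DR and DU145 arrays neither KRT18 (0.151) nor EPCAM (0.0566) was called. In 22Rv1-DR cells CDH1 fell, with a change of -3.38 ± 0.21 (adjusted p = 0.000491). KLK3 (-0.78 ± 0.41) and KLK2 (0.42 ± 0.34) were called there only with the block (adjusted p = 0.00996 and 0.0202). Of 7 fibroblast markers measured, only LUM, a matrix proteoglycan, was called in 22Rv1-DR cells, where 3.21% of all probe sets were. It rose by 6.04 ± 0.21 (adjusted p = 0.000113), and the list median was 0.11. With all 12 arrays the LUM rise was 4.42, because its replicate 3 difference was smaller. DCN on the same list changed by 0.95 ± 0.29 and was called only with the block (adjusted p = 0.0183), with -0.89 on replicate 3. The part of these shifts in the class II values was not tested.

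The genes lie in 3 places on GRCh38.p14, by RefSeq. HLA-DRA (chr6:32439887-32445046), HLA-DRB1 (chr6:32578775-32589848), HLA-DQB1 (chr6:32659467-32666657), HLA-DMB (chr6:32934636-32941028), HLA-DMA (chr6:32948618-32953097), HLA-DOA (chr6:33004182-33009591), HLA-DPA1 (chr6:33064569-33080748) and HLA-DPB1 (chr6:33075990-33089696) are in the class II region. CD74 is at chr5:150401639-150412910 and CIITA at chr16:10866206-10943021. Class II genes share 1 switch through the X and Y boxes, but a match of letters does not show a working box. In HLA-DMB the only Y box letters lie on the other strand, 22 bases before the gene start. Promoter windows of 5 genes are shown because they hold the letters of the X and Y boxes. Each holds 120 bases, ending 16 bases before the gene start, on the minus strand of GRCh38.p14, and capitals mark X box letters (AGNNACNGA, as written) and Y box letters (ATTGG, or CCAAT on the other strand).
HLA-DRB1, chr6:32589864-32589983: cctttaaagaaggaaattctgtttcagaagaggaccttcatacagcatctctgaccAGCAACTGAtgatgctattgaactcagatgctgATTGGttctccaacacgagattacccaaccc
HLA-DQB1, chr6:32666673-32666792: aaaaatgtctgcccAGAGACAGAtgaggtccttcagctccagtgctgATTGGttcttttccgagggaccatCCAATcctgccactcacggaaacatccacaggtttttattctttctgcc
HLA-DMB, chr6:32941044-32941163: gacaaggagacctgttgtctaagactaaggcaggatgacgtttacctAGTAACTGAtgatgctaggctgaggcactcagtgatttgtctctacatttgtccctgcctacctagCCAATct
HLA-DMA, chr6:32953113-32953232: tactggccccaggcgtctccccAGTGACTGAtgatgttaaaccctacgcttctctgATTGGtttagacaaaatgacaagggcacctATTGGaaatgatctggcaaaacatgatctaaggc
HLA-DOA, chr6:33009607-33009726: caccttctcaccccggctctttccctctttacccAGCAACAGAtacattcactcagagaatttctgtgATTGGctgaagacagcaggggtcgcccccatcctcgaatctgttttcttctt

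RefSeq promoters, 250 bases before to 50 after a start, were matched for 8 of the 10 genes, all but HLA-DRA and CIITA, in 9 windows. HLA-DPA1 has 2 of the windows, one at the gene start (chr6:33080699-33080998) and one inside the gene (chr6:33073600-33073899). Searched on both strands, the X box letters AGNNACNGA were in 6 of the 9 windows and in 15.3% of all 35116, and for HLA-DPA1 they were in the inner window only. The same letters followed by TG were in 4 of the 9 (HLA-DRB1, HLA-DQB1, HLA-DMB and HLA-DMA) and in 0.817% of all. The Y box letters ATTGG were in 7 of the 9 and in 34.6% of all. X box letters followed on the same strand by Y box letters starting 30 to 36 bases later were in 4 of the 9, at 33 bases in HLA-DRB1 and HLA-DQB1 and 34 bases in HLA-DMA and HLA-DOA, and in 0.103% of all. The letters and the spacing were chosen with these promoters in view, and the searches overlap, since every longer X match holds the shorter one. The letters TTCNNNGAA of the interferon gamma activation site were in 0 of the 9 windows and in 7.66% of all.

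In DU145-DR cells 2 class II probe sets fell, both of HLA-DRA, 0 rose and 22 were not called, where 6.22% of all probe sets were called (3.06% lower and 3.16% higher). The median change over the 24 was -0.22, against -0.02 over all probe sets. The 2 DU145-DR arrays lay below both DU145 arrays for 10 of the 24 and above both for 0, where 16.9% of all probe sets lay wholly below and 16.9% wholly above. All 3 replicates gave a lower resistant value for 13 of the 24 and a higher one for 0, where 27% of all probe sets were lower in all 3 and 23.2% higher. On replicate 3 alone 8 of the 28 were lower by at least 1 on the log2 scale and 0 higher by as much, where 4.73% of all 54613 probe sets were lower and 5.52% higher by at least 1. With the replicate number as a block 10 of the 24 were called lower and 0 higher, where 11.4% of all were called lower and 12.4% higher. The probe sets of 1 gene share transcripts and are not independent.

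HLA-DRA encodes the alpha chain of HLA-DR, which hardly varies between people and pairs with every DR beta chain. Its leading probe set, 208894_at, read 91.8, 63.1 and 27.7 on DU145-DR replicates 1, 2 and 3, against 212, 239 and 38.6 on the DU145 arrays. All 3 DU145-DR values were below the DU145 value of the same replicate, by a smaller margin on replicate 3. HLA-DRA fell by 1.39 ± 0.18 (SE, n = 2 arrays per group, adjusted p = 0.00812 by limma), and the replicate 3 difference was -0.32. Within its array the gene stood at percentiles 25.5 to 42.7 in DU145-DR cells and 49.3 to 53.8 in DU145 cells, so it lay in the lower part of the resistant arrays and about the middle of the parental ones.

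The second HLA-DRA probe set, 210982_s_at, read 69.6, 66.7 and 17.3 on the DU145-DR arrays, against 149, 158 and 28.8 on the DU145 arrays. The groups did not overlap within either table. It fell by 1.01 ± 0.13 (adjusted p = 0.00926), with -0.43 on replicate 3. Both HLA-DRA calls held when each of the 8 arrays was left out in turn (adjusted p at most 0.0490). They were lost when all 12 arrays were fitted with the table as a block (adjusted p = 0.359 and 0.447) and when only the 4 DU145-DR and DU145 arrays were fitted (0.117 and 0.123).

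**Figure D1:**
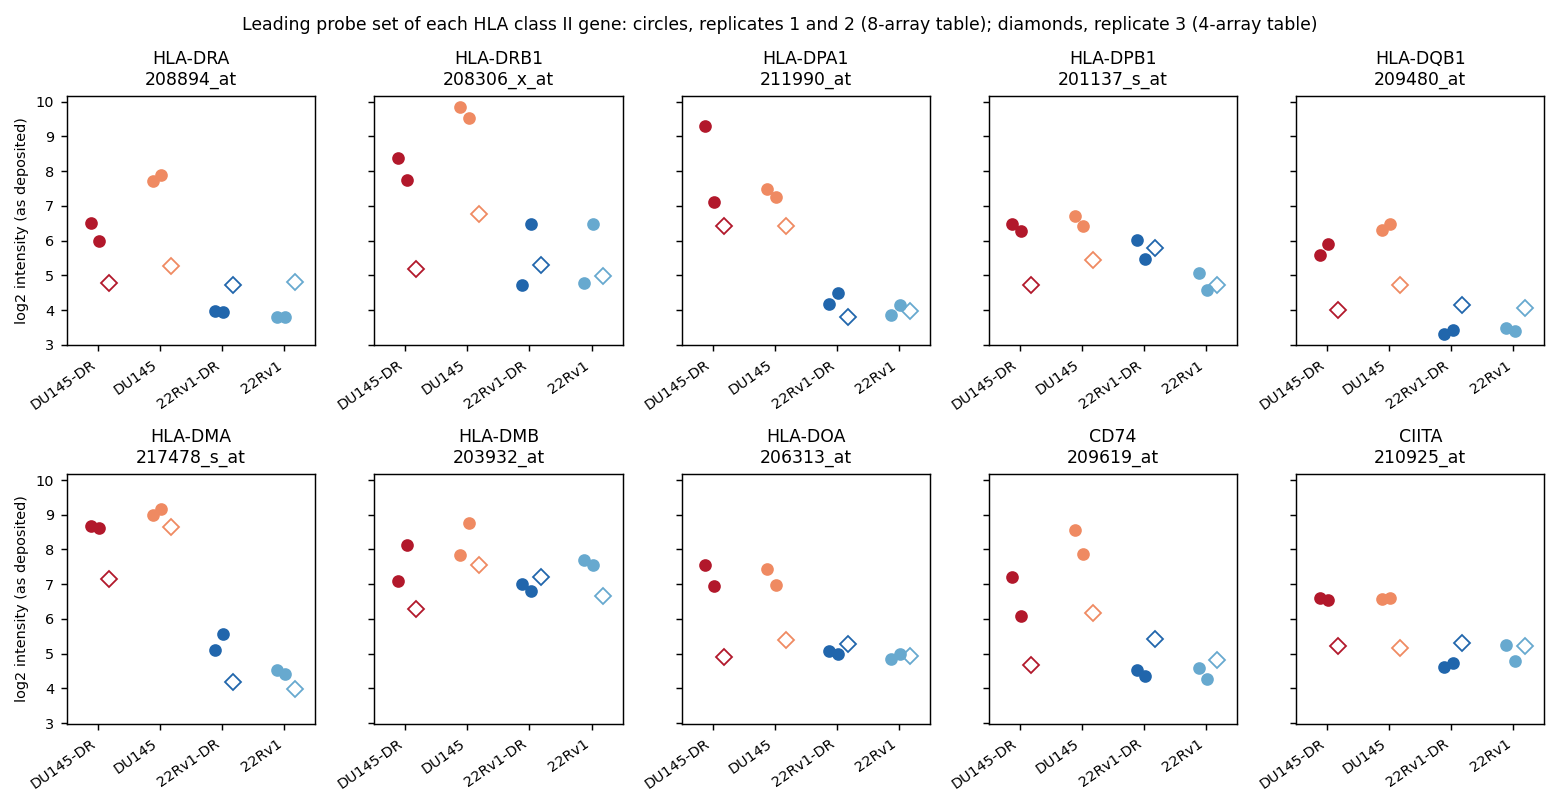
Intensity of each class II gene's leading probe set on each array (log axis), resistant groups left of their parental groups; circles are replicates 1 and 2 in the 8-array table and diamonds replicate 3 in the 4-array table, whose levels are not comparable with the circles. HLA-DRA reads 91.8 and 63.1 on DU145-DR arrays, below 212 and 239 on DU145 arrays.

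HLA-DRB1 encodes the most abundant DR beta chain. Its only single-gene probe set, 208306_x_at, carries the _x_at suffix that marks probes able to match other transcripts, and the DRB genes are near copies of each other, so its reads are not gene-specific. It read 331, 214 and 36 on the DU145-DR arrays, against 923, 744 and 109 on the DU145 arrays. Resistant values were lower on every replicate, with a change of -1.58 ± 0.54 that was not called (adjusted p = 0.166) and a replicate 3 difference of -1.27. With the replicate block it was called (adjusted p = 0.00188).

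Of 4 probe sets on the smaller array that name HLA-DRB1 beside other HLA genes, 3 fell. Probe set 209312_x_at (HLA-DRB5, HLA-DRB4, HLA-DRB1 and HLA-DQB1) read 331, 150 and 39.1 on the DU145-DR arrays, against 826, 1031 and 377 on the DU145 arrays, and fell by 1.97 ± 0.34 (adjusted p = 0.0202; -2.84 on replicate 3). Probe set 215193_x_at (HLA-DRB4, HLA-DRB3, HLA-DRB1 and HLA-DQB1) fell by 1.95 ± 0.36 (adjusted p = 0.0262; -2.06 on replicate 3). Probe set 204670_x_at (HLA-DRB4 and HLA-DRB1) fell by 1.39 ± 0.28 (adjusted p = 0.0345; -1.19 on replicate 3). The fourth, 221491_x_at, names 6 HLA genes, lay near the floor and gave -0.14 ± 0.19. The larger array holds 1 more, 238900_at (HLA-DRB5, HLA-DRB4, HLA-DRB3 and HLA-DRB1), which read 12.2 on the DU145-DR array, against 11.6 on the DU145 array (0.03). DU145-DR arrays lay below DU145 arrays on every replicate for the 3 that were called.

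These 3 calls could be lost by leaving out 1 array. The change then ranged from -2.50 to -1.44 for 209312_x_at, -2.41 to -1.49 for 215193_x_at and -1.50 to -1.29 for 204670_x_at. Without DU145 replicate 1 the adjusted p was 0.0767 for 209312_x_at, 0.108 for 215193_x_at and 0.146 for 204670_x_at, and without DU145 replicate 2 it was 0.106, 0.119 and 0.128. Without 22Rv1 replicate 1 or 2 it was 0.0501 for 209312_x_at and 0.0544 for 215193_x_at. The 204670_x_at call was also lost without DU145-DR replicate 1 (0.0639), DU145-DR replicate 2 (0.0794), or 22Rv1-DR replicate 1 or 2 (0.0503), with the median shift (0.101), with pseudocount 1 (0.0655) and with all 12 arrays (0.131). With only the 4 DU145-DR and DU145 arrays none of the 3 was called (0.151, 0.129 and 0.0801).

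CD74, the invariant chain, blocks the peptide groove of new class II molecules and guides them to endosomes. Probe set 209619_at read 147, 68.1 and 25.5 on the DU145-DR arrays, against 375, 236 and 72.5 on the DU145 arrays. The 2 groups did not overlap in the 8-array table, and replicate 3 went the same way (-1.09). The change was -1.42 ± 0.34 and just missed the threshold (adjusted p = 0.0589), which it passed without DU145-DR replicate 1 (adjusted p = 0.0156), after quantile normalization (0.0303), with a filter at the 40th percentile in at least 1 group (0.0357) and with the replicate block (0.00256). The adjusted p was 0.248 without DU145 replicate 1, 0.103 without DU145-DR replicate 2, 0.167 with all 12 arrays and 0.260 with only the 4 arrays compared. The larger array alone held 4 more class II probe sets, at percentiles 9.06 to 48.1 on the DU145-DR and DU145 arrays. Of these, CD74 1567627_at and 1567628_at differed by -0.30 and -0.03, HLA-DOA 226878_at by -0.14 and HLA-DPB1 244485_at by -0.05, and in 22Rv1-DR cells the 4 differed by 0.03 to 0.13.

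HLA-DMA and HLA-DMB form HLA-DM, which removes the CD74 fragment from the groove and lets peptides bind. HLA-DMA (217478_s_at) read 413, 396 and 143 on the DU145-DR arrays, against 512, 572 and 402 on the DU145 arrays, a change of -0.41 ± 0.16 that was not called (adjusted p = 0.239) beside a larger replicate 3 difference of -1.39. HLA-DMB (203932_at) read 137, 280 and 78.2 on the DU145-DR arrays, against 228, 431 and 187 on the DU145 arrays. Its DU145-DR values were lower on every replicate, by 0.67, 0.59 and 1.11 on the log2 scale, and replicates 1 and 2 lay apart within each group. The HLA-DMB change was -0.63 ± 0.37 (adjusted p = 0.519), and 0.00604 with the replicate block.

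HLA-DQB1 encodes the beta chain of HLA-DQ and has 7 probe sets, 5 of them with the _x_at suffix. The leading one, 209480_at, read 47.8, 59.7 and 16 on the DU145-DR arrays, against 79.9, 89.3 and 26.2 on the DU145 arrays. The groups did not overlap, and the change of -0.53 ± 0.15 was not called (adjusted p = 0.0927, and 0.00983 with the block). Over the 7 the changes ran from -0.71 to -0.03 and 0 were called, whereas with the block 4 were called lower. On replicate 3 the same 7 differed by -2.16 to -0.02, and 4 of them by more than 1. One of these, 211654_x_at, read 393, 416 and 65.8 on the DU145-DR arrays, against 560, 685 and 331 on the DU145 arrays.

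The HLA-DP chains were not called. HLA-DPA1, the DP alpha chain, read 626, 139 and 85.6 at 211990_at on the DU145-DR arrays, against 180, 152 and 85.0 on the DU145 arrays. Only DU145-DR replicate 1 was high, and the change was 0.80 ± 0.57 (adjusted p = 0.659). It was 1.82 (adjusted p = 0.00419) without DU145-DR replicate 2 and -0.23 (adjusted p = 0.648) without DU145-DR replicate 1. The other HLA-DPA1 probe sets gave 0.11 and -0.07. HLA-DPB1, the DP beta chain, read 88.6, 78.2 and 26.4 at 201137_s_at on the DU145-DR arrays, against 104, 85.6 and 43.4 on the DU145 arrays (-0.15 ± 0.20, adjusted p = 0.988).

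HLA-DOA, whose product is the alpha chain of HLA-DO and restrains HLA-DM, had 4 probe sets with changes from -0.04 to 0.03 and adjusted p of 1.00. At 206313_at it read 186, 124 and 30.1 on the DU145-DR arrays, against 175, 126 and 42.2 on the DU145 arrays, with no separation of the groups in the 8-array table. CIITA, the coactivator on which class II transcription depends, read 96.3, 93.1 and 37.5 at 210925_at on the DU145-DR arrays, against 95.7, 96.3 and 35.8 on the DU145 arrays (-0.02 ± 0.15, adjusted p = 1.00). Another CIITA probe set, 205101_at, gave -0.29 ± 0.34 (adjusted p = 0.940, and 0.0380 with the block), with 0.04 on replicate 3. The 3 CIITA probe sets lay at percentiles 12.05 to 49.96 on DU145-DR arrays and 10.7 to 47.4 on DU145 arrays, at most about mid-array in both groups.

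**Figure D2:**
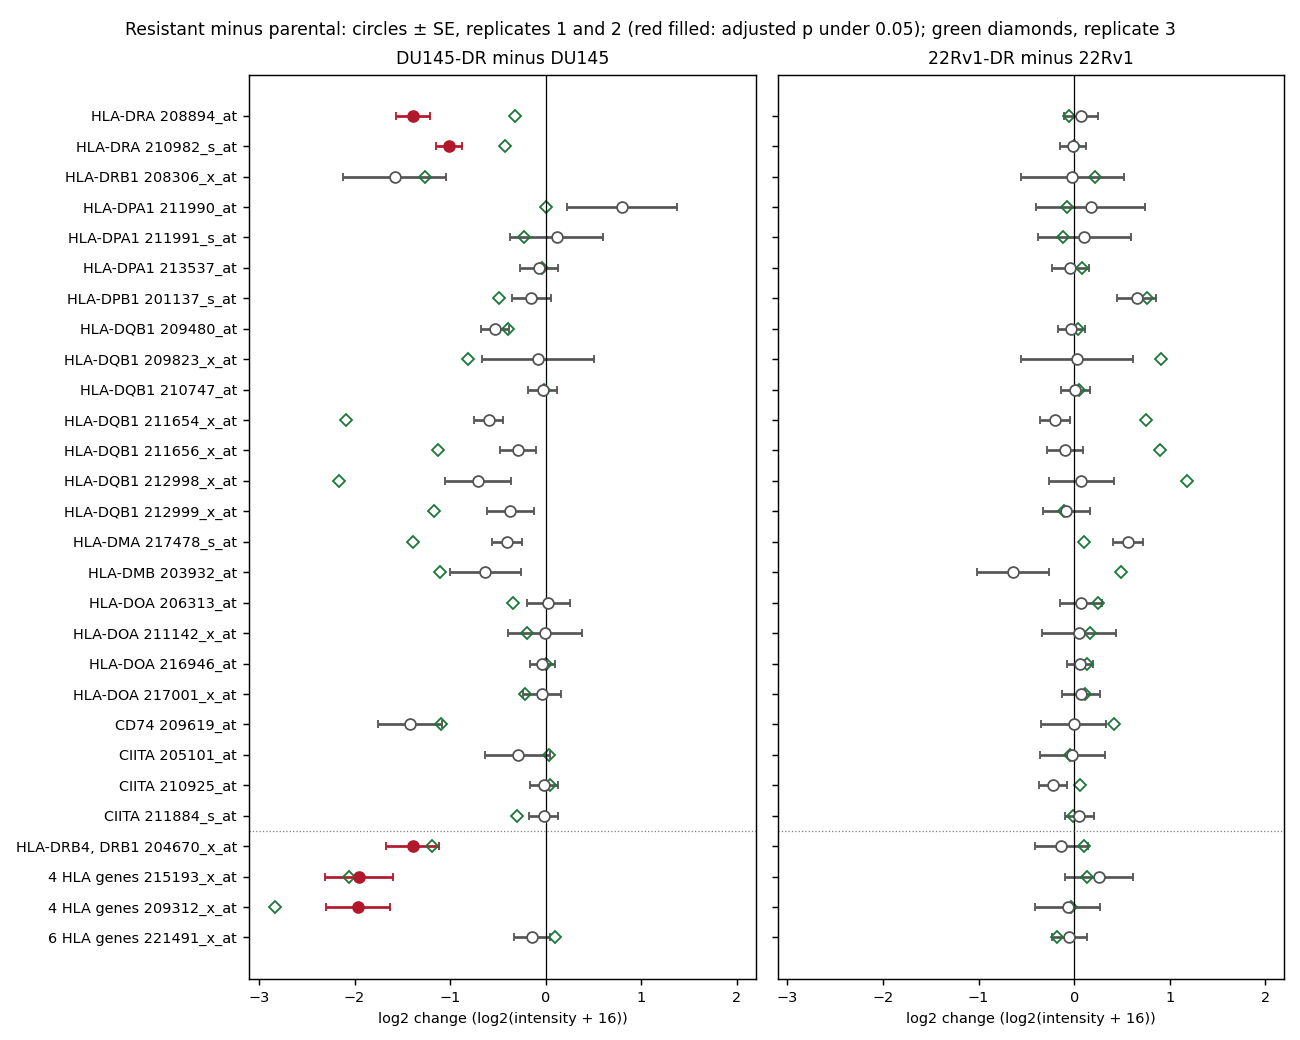
Resistant minus parental change of each class II probe set on the log2(intensity + 16) scale, with limma's standard error over 2 arrays per group, the untested replicate 3 difference as a diamond, and the 4 probe sets that name several HLA genes under the dotted line. In DU145-DR cells the 2 HLA-DRA probe sets, at -1.39 and -1.01, and 3 of those 4 are called (red), and in 22Rv1-DR cells none is.

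In 22Rv1-DR cells 0 of the 24 class II probe sets were called by limma, where 3.21% of all probe sets were. Unadjusted p-values were under 0.05 for 2 of the 24, the median change was 0.02 against 0.00 over all probe sets, and changes ran from -0.64 to 0.66. The 22Rv1-DR arrays lay wholly above the 22Rv1 arrays for 5 of the 24 and wholly below for 3, where 22.4% and 20.2% of all did so. All 3 replicates were higher for 7 and lower for 2, where 23.3% and 19.6% of all were. With the replicate block 2 were called higher and 1 lower, where 8.86% and 6.91% of all were.

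HLA-DRA lay near the floor of the 22Rv1 arrays. At 208894_at it read 15.6, 15.3 and 26.4 on the 22Rv1-DR arrays, against 13.8, 13.8 and 28.1 on the 22Rv1 arrays. The change was 0.08 ± 0.18 (adjusted p = 1.00), at percentiles 15.3 to 40.2 on 22Rv1-DR arrays and 9.58 to 42.4 on 22Rv1 arrays. CD74 was likewise dim, with 22.9, 20.4 and 43.1 on the 22Rv1-DR arrays, against 24.3, 19.4 and 28.2 on the 22Rv1 arrays (-0.00 ± 0.34, adjusted p = 1.00). HLA-DRB1 read 26.4, 88.6 and 39.1 on the 22Rv1-DR arrays, against 27.5, 88.6 and 31.3 on the 22Rv1 arrays. Its values split by replicate number, not by resistance.

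HLA-DPB1 and HLA-DMA were the class II genes with the largest positive changes in 22Rv1-DR cells. HLA-DPB1 read 65.3, 44.6 and 55.7 on the 22Rv1-DR arrays, against 33.8, 23.9 and 26.4 on the 22Rv1 arrays. The resistant arrays were higher on every replicate, with a change of 0.66 ± 0.20 (adjusted p = 0.193, and 0.00821 with the block) and 0.76 on replicate 3. HLA-DMA read 34.3, 47.2 and 18.3 on the 22Rv1-DR arrays, against 23.1, 21.3 and 15.8 on the 22Rv1 arrays. That change was 0.56 ± 0.16 (adjusted p = 0.153, and 0.0457 with the block), and only 0.11 on replicate 3.

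HLA-DMB, the partner of HLA-DMA, gave the opposite sign. It read 130, 111 and 148 on the 22Rv1-DR arrays, against 206, 187 and 101 on the 22Rv1 arrays, so replicates 1 and 2 were lower in the resistant cells and replicate 3 was higher. The change was -0.64 ± 0.37 (adjusted p = 0.659, and 0.00766 with the block), against 0.49 on replicate 3. HLA-DQB1 was dim at 209480_at, with 9.9, 10.8 and 17.6 on the 22Rv1-DR arrays, against 11.1, 10.6 and 16.7 on the 22Rv1 arrays. At 4 of its 5 _x_at probe sets the replicate 3 difference was 0.75 to 1.18, whereas the same 4 changed by -0.20 to 0.08 on replicates 1 and 2. One of these, 212998_x_at, was the only class II probe set higher by at least 1 on replicate 3, where 1.44% of all were, and 0 of the 28 were lower by as much, where 2.32% of all were.

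HLA-DPA1, HLA-DOA and CIITA read low in both 22Rv1 groups. HLA-DPA1 read 18, 22.3 and 14 on the 22Rv1-DR arrays, against 14.4, 17.8 and 15.7 on the 22Rv1 arrays (0.17 ± 0.57). HLA-DOA read 33.6, 31.8 and 39.1 on the 22Rv1-DR arrays, against 28.8, 31.8 and 30.5 on the 22Rv1 arrays (0.07 ± 0.22). CIITA read 24.6, 26.5 and 39.4 on the 22Rv1-DR arrays, against 37.8, 27.7 and 37.0 on the 22Rv1 arrays (-0.22 ± 0.15, adjusted p = 0.783).

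The difference between the 2 changes, 22Rv1-DR minus 22Rv1 less DU145-DR minus DU145, was called for 2 of the 24 class II probe sets, both of HLA-DRA and both higher, where 4.55% of all were called and 2.41% called higher. At 208894_at it was 1.46 ± 0.25 (adjusted p = 0.0252) and at 210982_s_at 0.99 ± 0.19 (adjusted p = 0.0365), with 0.27 and 0.43 on replicate 3. In 22Rv1 cells both probe sets read between 13.8 and 19.2 on replicates 1 and 2, near the floor of those arrays, where a fall of the DU145-DR size could not be read. The test therefore does not show that the lines respond differently. By adjusted p HLA-DMA came next, with 0.97 ± 0.23 (adjusted p = 0.0658, and 0.0221 with the block), whereas HLA-DRB1 at 1.56 ± 0.76 (0.403, and 0.00400 with the block) and CD74 at 1.42 ± 0.48 (0.186, and 0.00559 with the block) were larger. With the replicate block 7 of the 24 were called, all higher, where 11.4% of all were called higher.

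Both HLA-DRA calls of the difference could be lost by leaving out 1 array. The difference itself then ranged from 1.24 to 1.68 at 208894_at and from 0.92 to 1.07 at 210982_s_at. At 208894_at the adjusted p was 0.0588 without DU145 replicate 1, 0.0802 without DU145 replicate 2, 0.111 and 0.110 without 22Rv1-DR replicate 1 or 2, and 0.123 and 0.121 without 22Rv1 replicate 1 or 2. At 210982_s_at the call was lost without each of the 8 arrays, with adjusted p from 0.0547 without DU145-DR replicate 1 to 0.186 without 22Rv1 replicate 2, and after quantile normalization (0.0533). With all 12 arrays and the table as a block the adjusted p was 0.894 and 1.00.

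Between the parental lines, after quantile normalization of the 8 arrays, 3 of the 24 class II probe sets were called higher and 7 lower in 22Rv1 than in DU145 cells, where 33.5% of all were called (17.9% higher and 15.6% lower). Without that normalization 2 were called higher and 20 lower, where 629 of all were higher and 18586 lower. HLA-DMA was lower by 2.63 ± 0.16 (a difference of -2.63, adjusted p = 7.49e-05), and on replicate 3 the difference was -3.72. HLA-DRA differed by -1.82 ± 0.14, CD74 by -1.81 ± 0.30 and HLA-DRB1 by -2.34 ± 0.61 (adjusted p at most 0.0248), with smaller differences of -0.31, -1.0002 and -1.40 on replicate 3. In percentiles, HLA-DMA stood at 21.3 to 29.4 on 22Rv1 arrays and 68.1 to 84.7 on DU145 arrays, and CD74 at 24.6 to 42.6 and 53.6 to 62.1. HLA-DRA stood at 9.58 to 42.4 on 22Rv1 arrays and 49.3 to 53.8 on DU145 arrays. For these 3 genes the 2 parental lines did not overlap.

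HLA-DQB1 gave opposite readings in the 2 tables. Its probe sets 211656_x_at, 212998_x_at and 209823_x_at were called higher in 22Rv1 than in DU145 cells, by 3.03 ± 0.23, 2.41 ± 0.29 and 1.81 ± 0.54, yet on replicate 3 they were lower, at -0.61, -1.57 and -0.50. The gene's leading probe set 209480_at was lower by both (-0.81 ± 0.16 and -0.37). With all 12 arrays fitted together the 3 were not called (adjusted p = 0.0536, 0.256 and 0.143). All 3 carry the _x_at suffix. Uncalled probe sets disagreed as well, among them HLA-DQB1 211654_x_at, at 0.31 ± 0.14 against -2.05 on replicate 3. HLA-DMB 203932_at, which lacks the suffix, gave 0.78 ± 0.40 against -0.80. The direction for HLA-DQB1 between the lines was not settled by these arrays.

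Some of these calls were lost when 1 array was left out. HLA-DRB1 was not called with DU145 replicate 1 or 2 left out (adjusted p = 0.117 and 0.0561) or with 22Rv1 replicate 1 left out (0.131), and 209480_at lost its call without DU145 replicate 2 (0.0514) or 22Rv1 replicate 1 (0.0536). HLA-DQB1 209823_x_at lost its call without DU145-DR replicate 1 (0.0568), DU145-DR replicate 2 (0.0563), DU145 replicate 1 (0.144), DU145 replicate 2 (0.112) or 22Rv1 replicate 1 (0.210). HLA-DPA1 213537_at, at -0.72 ± 0.15, lost its call without DU145 replicate 2 (0.0585) or 22Rv1 replicate 2 (0.0647).

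Between the resistant lines 5 of the 24 were called higher and 3 lower in 22Rv1-DR than in DU145-DR cells, where 33.4% of all were called (17.6% higher and 15.8% lower). Without quantile normalization 2 were called higher and 19 lower. HLA-DMA stayed lower, by -1.56 ± 0.16 (adjusted p = 0.000619; -2.21 on replicate 3), and HLA-DPA1 211990_at and 213537_at were lower too (-1.97 ± 0.60 and -0.75 ± 0.15). Without DU145-DR replicate 1, which read 626 at 211990_at against 139 on replicate 2, that difference was -0.89, and without DU145-DR replicate 2 it was -3.00. HLA-DRA and CD74, which were called between the parental lines, differed by -0.38 ± 0.14 (adjusted p = 0.0798) and -0.35 ± 0.30 (adjusted p = 0.426). In percentiles HLA-DRA stood at 15.3 and 15.5 on 22Rv1-DR replicates 1 and 2, below 31.9 and 25.5 on the DU145-DR arrays. On replicate 3 it stood at 40.2 against 42.7, so the 22Rv1-DR percentile was lower in both tables. CD74 stood at 29.5 and 26.6 against 43.5 and 27.95, which overlap, and at 53 against 40.4 on replicate 3. HLA-DPB1 was called higher in 22Rv1-DR cells (0.85 ± 0.16, adjusted p = 0.00723; 0.76 on replicate 3), at percentiles 45.4 to 58.1 against 30.95 to 41.3 in DU145-DR cells. The other 4 called higher were _x_at probe sets of HLA-DQB1, at 0.68 to 3.16. Without quantile normalization the direction turned for HLA-DPB1 (-0.50, adjusted p = 0.0514) and for HLA-DQB1 211654_x_at (-0.59, adjusted p = 0.00929).

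Among the calls between the resistant lines, HLA-DPB1 was lost without 22Rv1-DR replicate 1 (adjusted p = 0.0532), HLA-DPA1 213537_at without 22Rv1-DR replicate 1 (0.0545) and HLA-DQB1 211654_x_at without 22Rv1-DR replicate 2 (0.0622). HLA-DPA1 211990_at was lost without either DU145 array (0.0709 and 0.0665), either 22Rv1-DR array (0.168 and 0.117) or either 22Rv1 array (0.0714 and 0.0712). HLA-DQB1 209823_x_at was lost without DU145-DR replicate 1 (0.104) or 2 (0.113), DU145 replicate 1 (0.0624) or 2 (0.0605), or 22Rv1-DR replicate 1 (0.195).

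**Figure D3:**
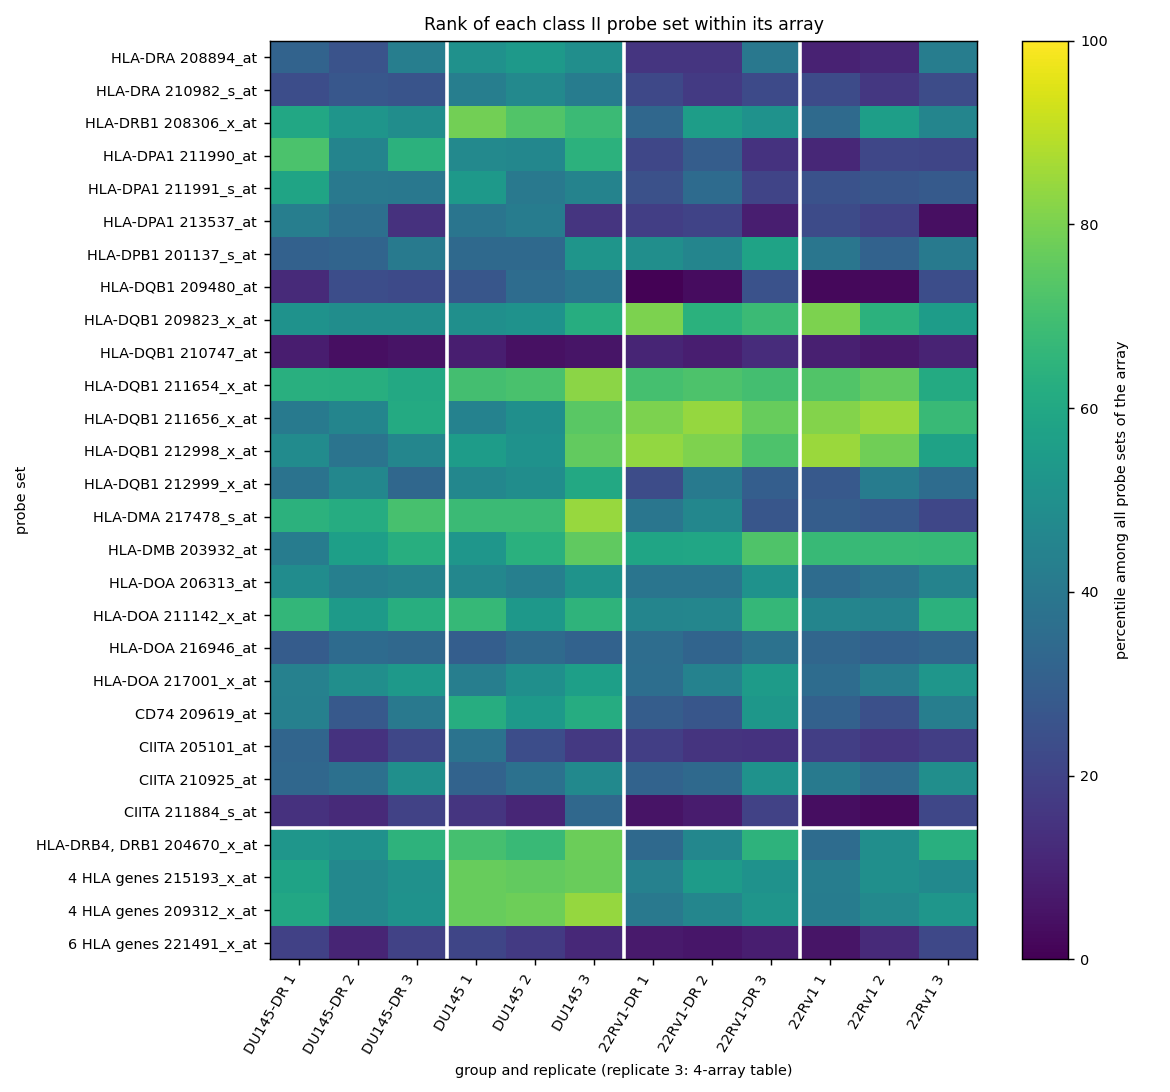
Percentile of each class II probe set within each array, from 0 (dimmest) to 100 (brightest), with arrays in columns by group. HLA-DMA stands at 68.1 to 84.7 on DU145 arrays and at most 29.4 on 22Rv1 arrays.

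The order of the 10 leading probe sets within an array also differed between the lines. On DU145-DR arrays the median percentile was highest for HLA-DMA (64.2) and HLA-DPA1 (64.1), whose ranges overlapped, and then HLA-DMB (56.5) and HLA-DRB1 (52.3). On DU145 arrays it was highest for HLA-DRB1 (72.8) and HLA-DMA (68.2), then HLA-DMB (63.4) and CD74 (61.8), with ranges over both tables that overlapped. There HLA-DRB1 lay above HLA-DMA on replicates 1 and 2 (78.8 and 72.8 against 68.2 and 68.1) and below it on replicate 3 (68.0 against 84.7). On 22Rv1-DR arrays HLA-DMB (59.0) was followed by HLA-DRB1 (50.8) and HLA-DPB1 (49.3), and on 22Rv1 arrays HLA-DMB (67.3) by HLA-DRB1 (45.4). In both 22Rv1 groups the HLA-DMB range lay wholly above that of HLA-DRB1. The leading HLA-DQB1 probe set had the lowest median in DU145-DR (22.6), 22Rv1-DR (3.20) and 22Rv1 cells (2.38), whereas in DU145 cells HLA-DPB1 was lowest (34.2), with HLA-DQB1 (35.5) next. Probe sets bind with different strength, so this order is of readings and not of mRNA levels.

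The other genes of the class II pathway were described by lists. Of 5 other class II genes (HLA-DOB, HLA-DQA1, HLA-DRB6, HLA-DRB4 and HLA-DQB2), 0 were called in either line, with a median change of -0.18 in DU145-DR cells and 0.00 in 22Rv1-DR cells. Their summed intensity ranged from 251 to 287 on DU145-DR arrays and 279 to 354 on DU145 arrays. Of 7 genes of the promoter-binding factors (RFX5, RFXAP and RFXANK of the X box, CREB1, and the NF-Y subunits NFYA, NFYB and NFYC), 0 were called in either line. NFYC read 576 and 402 on DU145-DR arrays, against 298 and 242 on DU145 arrays (0.80 ± 0.21, adjusted p = 0.0781, and 0.00641 with the block; 1.37 on replicate 3). RFX5 read 1024 and 1003 on 22Rv1-DR arrays, against 468 and 440 on 22Rv1 arrays (1.13 ± 0.43, adjusted p = 0.309, and 0.0397 with the block; 0.75 on replicate 3). With the block 2 of the 7 were called in DU145-DR cells and 1 in 22Rv1-DR cells, all higher, where 12.4% and 8.86% of all probe sets were called higher.

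Of 8 genes of the interferon gamma route to CIITA, 0 were called in DU145-DR cells, where the list median was 0.08. IRF1, an interferon-induced transcription factor that acts on a CIITA promoter, read 211 and 272 on DU145-DR arrays, against 468 and 523 on DU145 arrays. The groups did not overlap, and the change was -0.997 ± 0.269 (adjusted p = 0.0889, and 0.00490 with the block; -0.69 on replicate 3). In 22Rv1-DR cells, where 3.21% of all were called, 1 of the 8 rose, JAK1, a kinase of the interferon receptors, which read 138 and 172 on 22Rv1-DR arrays, against 45.6 and 53.8 on 22Rv1 arrays (1.38 ± 0.19, adjusted p = 0.0113; 0.93 on replicate 3). That call was lost without 22Rv1-DR replicate 1 (0.0561) or 2 (0.103), without 22Rv1 replicate 1 (0.122) or 2 (0.0797), and with all 12 arrays (0.0706). With the block 1 of the 8 was called higher and 1 lower in DU145-DR cells (12.4% and 11.4% of all), and 2 higher in 22Rv1-DR cells (8.86% of all).

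Of 12 genes of endosomal antigen processing, 1 fell in DU145-DR cells and 0 were called in 22Rv1-DR cells, where 6.22% and 3.21% of all were called. The one that fell was CTSH, which encodes the lysosomal protease cathepsin H and read 294 and 431 on DU145-DR arrays, against 917 and 1017 on DU145 arrays (-1.40 ± 0.20, adjusted p = 0.0109; -2.79 on replicate 3). It was not called with DU145 replicate 1 or 2 left out (adjusted p = 0.0511 and 0.0613) or with only the 4 DU145-DR and DU145 arrays (0.128). The list median in DU145-DR cells was 0.15, and with the block 4 were called higher and 3 lower (12.4% and 11.4% of all), and 1 higher in 22Rv1-DR cells (8.86% of all). Of 10 CIITA chromatin partners and repressors, CREBBP, which encodes the acetyltransferase CBP, rose in DU145-DR cells (0.74 ± 0.16, adjusted p = 0.0457; 0.83 on replicate 3), a call that was lost without each of the 8 arrays (adjusted p 0.0549 to 0.177), and 0 were called in 22Rv1-DR cells. With the block 2 of the 10 were called higher in DU145-DR cells (12.4% of all) and 2 lower in 22Rv1-DR cells (6.91% of all). CREBBP read 1252 and 1097 on DU145-DR arrays, against 622 and 781 on DU145 arrays. Its call was also lost with quantile normalization (adjusted p = 0.0593), the median shift (0.0888) and pseudocount 1 (0.0770). The same held for the filter in at least 1 group (0.0549), all 12 arrays (0.408) and only the 4 arrays compared (0.253). CREBBP stayed called with pseudocount 64 (0.0295), the filter on the mean (0.0466), 1 probe set per gene (0.0438) and the block (0.0222).

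**Figure D4:**
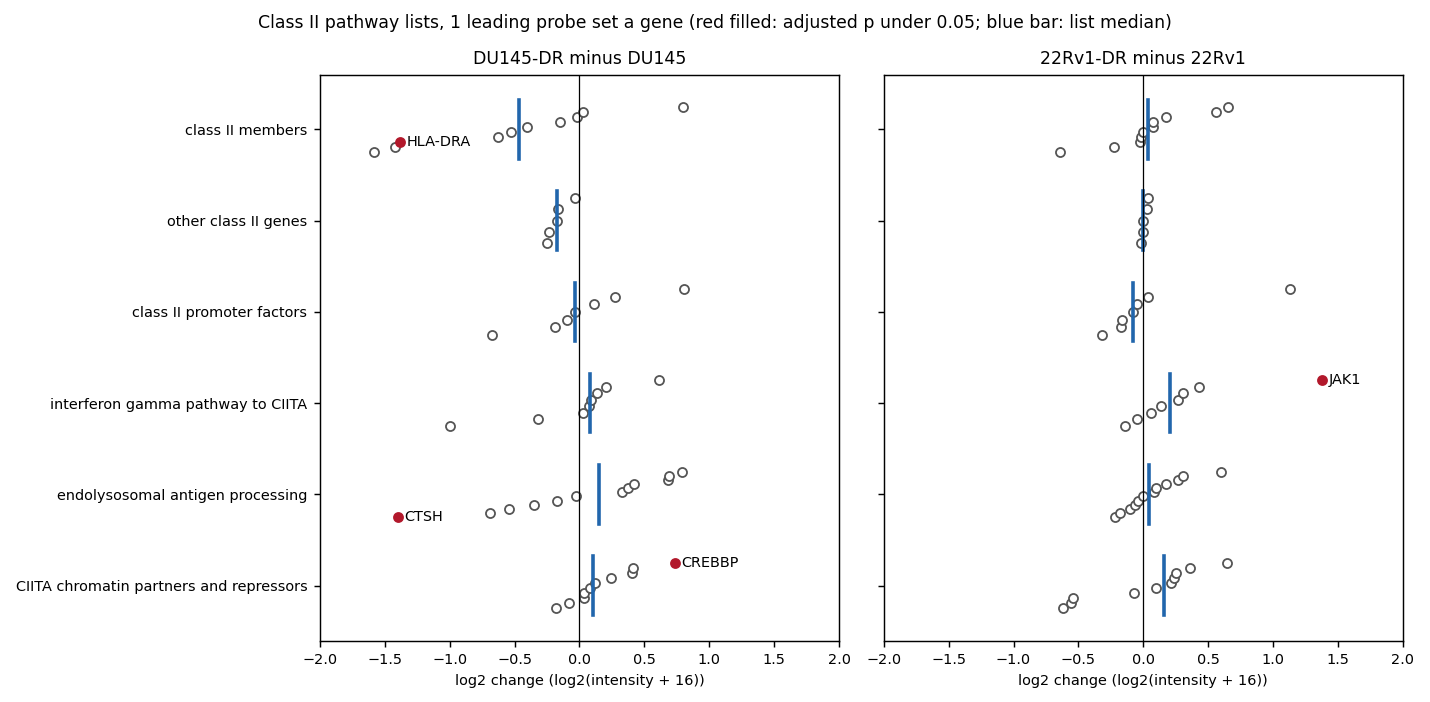
Resistant minus parental change (log2) of the leading probe set of each gene in the class II members and the other class II pathway lists, 1 point per gene, with called genes in red and named and each list's median as a blue bar. HLA-DRA at -1.39, CTSH at -1.40 and CREBBP at 0.74 are called in DU145-DR cells, and JAK1 at 1.38 in 22Rv1-DR cells.

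The genes whose readings ran most like HLA-DRA over the 8 quantile-normalized arrays, among 12043 probe sets compared, were FOXN3 (Pearson r = 0.991), SENP6 (0.990), RTF1 (0.988), YIPF2 (0.986) and CFLAR (0.985). For CD74 they were SULT4A1 (0.992), TES (0.988), WARS1 (0.987), DONSON (0.986) and MMP24OS (0.985). The 8 points share 2 lines and, within a line, replicate number, so these values are a description with no test. The genes were chosen over the same 8 arrays that give their changes below. Falls in DU145-DR cells on replicates 1 and 2 therefore follow in part from that choice. FOXN3, a forkhead transcription factor, read 223 and 204 on DU145-DR arrays, against 644 and 744 on DU145 arrays, and WARS1, a tryptophanyl-tRNA synthetase induced by interferon gamma, read 699 and 468 on DU145-DR arrays, against 1342 and 1287 on DU145 arrays. The DU145-DR minus DU145 change was -1.63 for FOXN3 and -1.18 for WARS1. Among the other likeness genes it was -2.04 for CFLAR (-0.66 on replicate 3) and -1.31 for TES (-2.03). It was -0.58 for SULT4A1, -0.99 for DONSON and -0.89 for MMP24OS. RTF1 differed by -0.31 and YIPF2 by -0.29 (0.31 on replicate 3), and SENP6 differed by -1.08 but by 0.03 on replicate 3.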

How the data were processed

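The authors deposited linear probe-set intensities, 1 intensity for each probe set and array, in a table of 8 arrays (22215 probe sets) and one of 4 arrays (54613). The authors' processing notes name MAS5 and RMA, without role, order or version, per the submitters' processing notes; the log2 of 100% of the values has 2 decimals, within 1e-05. The number of arrays limits the precision. The members and the gene lists were chosen with earlier results of these data known.

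Probe sets were named from the array annotation with symbols updated through Entrez identifiers: 19064 and 41091 named 1 gene, 1043 and 1801 several, and 2108 and 11721 none. No probe set was filtered. On log2(intensity + 16), limma 3.58.1 (R 4.3.3) fitted the 8-array table with 1 term per group and 4 residual degrees of freedom (lmFit and eBayes, two-sided), with Benjamini-Hochberg adjustment over all probe sets. Comparisons between lines used quantile-normalized arrays. The fits were tested on simulated data.

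Values are printed for each gene's leading probe set (highest mean, not _x_at where possible) and every called member; list genes by adjusted p, up to 4 called per list; likeness genes as the 5 highest correlations for HLA-DRA and CD74. Members and list genes outside this rule that are printed (211654_x_at, NFYC, RFX5, IRF1 and others given as uncalled) were chosen after their values were seen.

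Replicate numbers were checked for pairing: deviations from the group mean correlated at 0.747 between DU145-DR and DU145 and 0.787 between 22Rv1-DR and 22Rv1 arrays of the same number, against 0.0662 to 0.0975 across lines; over 12 arrays every pair within a line gave 0.541 to 0.757, values that include the offset between array types. Alternatives were the replicate block, quantile normalization or none, a median shift, pseudocounts of 1 and 64, filters at the 40th percentile, 1 probe set per gene, all 12 arrays, only the arrays compared, and each array left out.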

Additional observations from a re-analysis of the deposited data

Results flagged for a closer look

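HLA-DRA is listed because a test of the difference between the 2 changes passed the threshold. At 208894_at the 22Rv1 change minus the DU145 change was 1.46 (adjusted p = 0.0252 by limma), from 0.08 in 22Rv1-DR against 22Rv1 cells and -1.39 in DU145-DR against DU145 cells. At 210982_s_at it was 0.99 (adjusted p = 0.0365), from -0.01 and -1.01. HLA-DRA lay at 13.8 to 19.2 in both 22Rv1 groups on replicates 1 and 2, near the floor of those arrays, where a fall of the DU145-DR size could not be read, so the test does not show that the lines respond differently. Groups of 3 samples were not searched for outlying arrays.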

How the results depend on the processing

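Member calls in DU145-DR against DU145 cells (2) became 4 with quantile normalization, 10 with the replicate block, and 0 with a filter on the mean (which left 9 members and no HLA-DRA), with all 12 arrays or with only the 4 arrays compared. Without 1 array they numbered 2 to 3. In 22Rv1-DR against 22Rv1 cells (0) the replicate block gave 3, and 0 to 0 were called without 1 array. For the difference of changes (2) the block gave 7; the median shift, pseudocount 1, the filter in at least 1 group and 1 probe set per gene gave 1 each; the filter on the mean and all 12 arrays gave 0; and without 1 array 0 to 2 were called. Between the parental lines (10) no quantile normalization gave 22 (2 higher, 20 lower), the filter on the mean 5, 1 probe set per gene 4, and leaving out 1 array 7 to 13. Between the resistant lines (8) these were 21 (2 higher, 19 lower) without quantile normalization, 3 with 1 probe set per gene, and 4 to 11 without 1 array. Single member results numbered 946 on the same side of the threshold, 69 newly past it, 60 no longer past it and 26 with the sign turned, 18 of them called under neither setting.

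Without quantile normalization 9 signs turned. In 22Rv1 minus DU145 they were -1.31 for HLA-DPB1 201137_s_at, -0.94 for HLA-DQB1 210747_at, -1.21 for CIITA 210925_at and -0.98 for HLA-DQB1 211654_x_at. In 22Rv1-DR minus DU145-DR they were -0.50 for HLA-DPB1 201137_s_at, -0.64 for HLA-DMB, -0.89 for HLA-DQB1 210747_at, -0.59 for HLA-DQB1 211654_x_at and -1.25 for HLA-DOA 216946_at. With the median shift HLA-DPB1 201137_s_at was -0.056 in 22Rv1 minus DU145 and HLA-DOA 216946_at -0.083 in 22Rv1-DR minus DU145-DR. With all 12 arrays, 22Rv1 minus DU145 was -0.078 for HLA-DPB1 201137_s_at, -0.46 for HLA-DQB1 211654_x_at and 0.012 for HLA-DOA 216946_at.

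Leaving out 1 array turned the other 12, in 9 results whose values then ranged across 0. In DU145-DR minus DU145 the range was -0.72 to 0.13 for CIITA 205101_at and -0.23 to 1.82 for HLA-DPA1 211990_at, whose difference of changes ranged from -1.65 to 0.40. In 22Rv1 minus DU145 it was -0.11 to 0.24 for HLA-DPB1 201137_s_at, -0.014 to 0.083 for HLA-DQB1 210747_at and -0.091 to 0.083 for HLA-DOA 216946_at. In 22Rv1-DR minus DU145-DR it was -0.47 to 0.048 for CIITA 205101_at, -0.70 to 0.0043 for CD74 and -0.042 to 0.18 for HLA-DOA 216946_at. The causes were not tested.

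Counts over all probe sets in DU145-DR against DU145 (1381) were 5281 with the replicate block, 886 with the median shift, 621 with 12 arrays, 96 with 4 arrays and 519 to 1772 without 1 array. In 22Rv1-DR against 22Rv1 (712) they were 3503, 325 with 12 arrays, 1452 with 4 arrays and 214 to 1029. For the difference (1010) they were 4854 with the block, 1568 with quantile normalization, 383 with 12 arrays and 290 to 1452. Between parental lines 3981 were higher and 3465 lower, against 629 and 18586 without quantile normalization and 4621 and 2508 with the median shift; 1 probe set per gene gave 4406, and without 1 array 4542 to 8245. Between resistant lines 3917 were higher and 3510 lower, against 695 and 18431 without quantile normalization; 1 probe set per gene gave 4500, and without 1 array 4734 to 7343. A lone array left in a group is assumed to vary like the other groups.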
